A study of Mus musculus with 8 samples.

Results

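The 267 genes of mouse chromosome 14 that were expressed in 2 T cell leukemia lines are described here, with the level of each compared between the lines. A gene was a member if it lies on chromosome 14 in assembly GRCm38, was measured by a probe set with 1 gene symbol, and had a mean intensity above 200 units over all 8 arrays. Where a gene had several such probe sets, the brightest stood for it. Of 648 genes with 1 symbol on chromosome 14, 379 lay at or below the minimum, 1 was a ribosomal protein gene and 1 was left out by name, so 267 remained of the 18193 genes measured in all. The members were thus chosen by their mean intensity, a measured value, and chromosome 14 was picked with the difference between the lines already known. Counts and medians of the line difference are therefore descriptions and carry no test of the chromosome as a whole.

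Both lines were derived from leukemias of E2a-deficient mice, and the strain of all arrays was FVB/NJ. E2a encodes E protein transcription factors that direct early lymphocyte development. The line that the sample titles call E2a-/-_708 has unmodified Lef1 and is named the E2a-/- line here. The line with the title E2a-/-Lef1F/F_545 also lacks E2a, and both its copies of Lef1, a TCF/LEF family transcription factor gene, carry loxP sites around the part for the DNA binding domain. It is named the Lef1F/F line. Cells of each line received either of 2 retroviruses, MigR1 for GFP alone or MigR1-Cre for GFP and the recombinase Cre, and GFP+ cells were sorted 72 h later. This gave 4 groups of 2 arrays, hence 4 arrays per line. The labels give no age of the mice and name no separate cultures for the replicates, so the spread behind each p-value is that of these arrays and may be technical. With 1 line per genotype, line and genotype cannot be told apart.

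Chromosome 14 of the mouse holds genes of every cellular role, among them the T cell receptor alpha and delta locus and the granzyme cluster. As background, when a whole chromosome is gained or lost, as happens often in leukemia, the transcripts of most of its expressed genes tend to shift together, while single genes can be held near their earlier level or moved further by their own regulation. Such a shift is small for any 1 gene and is seen most clearly over many genes at once. These arrays measured RNA and not DNA, so copy number is unknown here. A ratio of 3:2, which is 0.58 on the log2 scale, is used below only as a yardstick of size.

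The 2 lines carried RNA of T cells. Of 6 T cell markers measured, Cd3e, Cd3g, Cd3d and Thy1 were above 200 units in all arrays, Cd5 was between 68 and 85 units, and Cd2 lay below the minimum in the E2a-/- line and around it in the Lef1F/F line. The sum of the 6 ran from 18888 to 19769 in the E2a-/- line and from 20345 to 26547 in the Lef1F/F line. None of 4 B cell and 5 myeloid markers had a mean above 200 in either line, and of 3 erythroid markers Epor did, at 200 to 232 in the E2a-/- line and 236 to 274 in the Lef1F/F line. The summed level of 4 stromal markers was 4381 to 4633 in the E2a-/- line and 561 to 644 in the Lef1F/F line. Col1a2, which encodes a chain of type I collagen, was at 4131 to 4377 units in the E2a-/- line and 252 to 311 in the Lef1F/F line, while Col1a1 and Col3a1 were under 70 units in every array. Pdgfrb was at 136 to 164 units in the E2a-/- line and 155 to 242 in the Lef1F/F line. The lower stromal sum of the Lef1F/F line thus came from Col1a2 alone. The part of these markers in the results was not tested. Lef1 itself stood at 6918 and 6126 units in the MigR1 arrays of the Lef1F/F line and at 1903 and 1678 units where Cre was given, and at 3008 to 3416 in the E2a-/- line, so the 2 lowest arrays were those titled Lef1F/F with MigR1-Cre. A further field of the labels gives another vector for the MigR1-Cre arrays of the E2a-/- line and the MigR1 arrays of the Lef1F/F line. The comparison of lines uses both vectors equally and does not depend on it.

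Expressed genes of chromosome 14 were higher in the Lef1F/F line than in the E2a-/- line almost throughout. The median log2 difference of the 267 members was 0.42, a fold of 1.34, with quartiles of 0.23 and 0.60. Of the members, 247 (92.5%) were higher in the Lef1F/F line and 20 were lower. The same median over 7186 genes above the minimum on the other chromosomes was -0.03, and 44.7% of them were higher in the Lef1F/F line. Among the 20 chromosomes plotted, the next highest median was that of chromosome 9, at 0.11, followed by chromosome 13 at 0.07, and the lowest was that of chromosome 15, at -0.10.

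**Figure D1:**
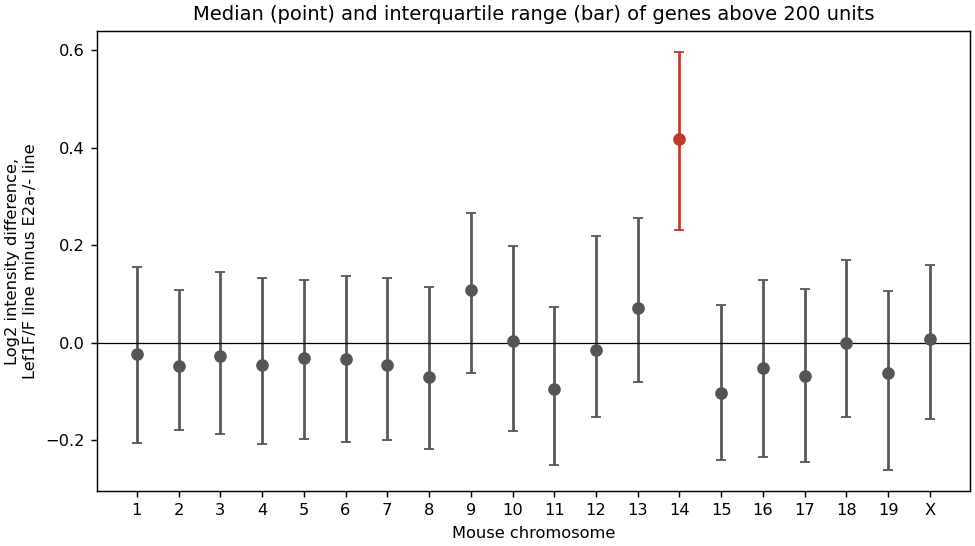
Median (point) and quartiles (bar) of the log2 intensity difference, Lef1F/F line minus E2a-/- line, for genes above 200 units on each chromosome (x axis). Chromosome 14 has a median of 0.42 with a lower quartile of 0.23, above the medians of all other chromosomes shown, of which the highest is 0.11.

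The shift was present in each array of the Lef1F/F line. Set against the mean of the E2a-/- line, the members' median was 0.41 and 0.45 in the MigR1 arrays and 0.37 and 0.48 in the MigR1-Cre arrays of the Lef1F/F line. In the 4 arrays of the E2a-/- line it lay between -0.02 and 0.02, and the median of genes on other chromosomes lay between -0.05 and 0.01 in all 8 arrays. These array medians describe the chosen chromosome and carry no test. Within groups they had a pooled SD of 0.04 (4 degrees of freedom).

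Gene by gene, all 4 Lef1F/F arrays exceeded all 4 E2a-/- arrays for 212 members (79.4%), were all below them for 11 (4.12%), and overlapped them for 44. On the other chromosomes the corresponding shares were 21.7% above and 28.5% below. By limma at an adjusted p under 0.05, 207 members (77.5%) were higher in the Lef1F/F line and 11 (4.12%) were lower. The background for these counts was 9.71% of all 45037 probe sets higher and 10.8% lower, or, among genes above the minimum on other chromosomes, 19.4% higher and 24.3% lower. The share of members called lower was thus below its background and the share called higher well above it. The lines differed widely on every chromosome, and on chromosome 14 the spread of the differences, a median absolute deviation of 0.18, was close to the 0.17 found elsewhere.

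The sizes clustered below the 3:2 yardstick. A band from 0.29 to 0.88, which is 0.5 to 1.5 times the yardstick on the log2 scale, held 155 members (58.1%), and 154 of them were called higher. A further 64 (24.0%) were between 0 and 0.29, of which 25 were called, and 28 (10.5%) were beyond the band, all of them called. The remaining 20 (7.49%) were below 0. On the other chromosomes the same bands held 10.7%, 31.0%, 3.01% and 55.3% of genes. The 95% interval of a member's difference, not adjusted for the number of genes, held the members' median in 110 cases, lay wholly below it in 78 and wholly above it in 79. Members therefore differed among themselves by more than their own error.

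**Figure D2:**
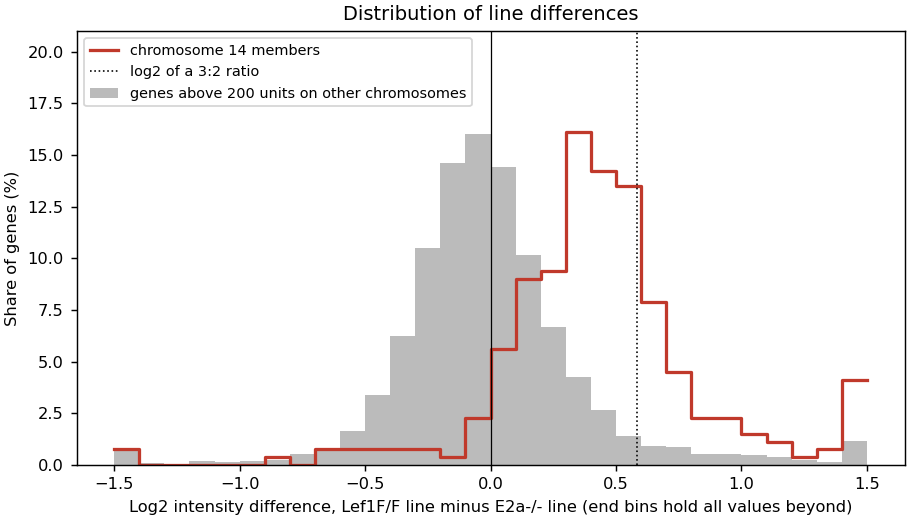
Share of genes (y axis, %) by log2 intensity difference, Lef1F/F line minus E2a-/- line (x axis), for the 267 members (line) and 7186 genes above 200 units on other chromosomes (grey bars). The end bins also hold all values beyond 1.5 in size, which are 9 members above and 2 below. The members' distribution has about the same width and is moved to the right, with its middle at 0.42, left of the dotted 3:2 yardstick at 0.58.

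The difference ran along the whole chromosome. With the members in chromosome order and cut into 5 parts of equal size, the medians were 0.42 from Rpp14 to Dcp1a, 0.39 from Tkt to Ttc5, 0.36 from Ccnb1ip1 to Ift88, 0.50 from Eef1akmt1 to Fndc3a and 0.48 from Rcbtb2 to Tmtc4. Each stretch had 53 or 54 members, of which 46 to 52 were higher in the Lef1F/F line. The longest run of neighbouring members above 0 was 47 genes, and no more than 2 neighbours in a row were below 0. The members lower in the Lef1F/F line thus stood singly or in pairs among genes that were higher. Of the 28 members beyond the band, 10 were in the last of these stretches and 3 to 7 in each of the others.

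**Figure D3:**
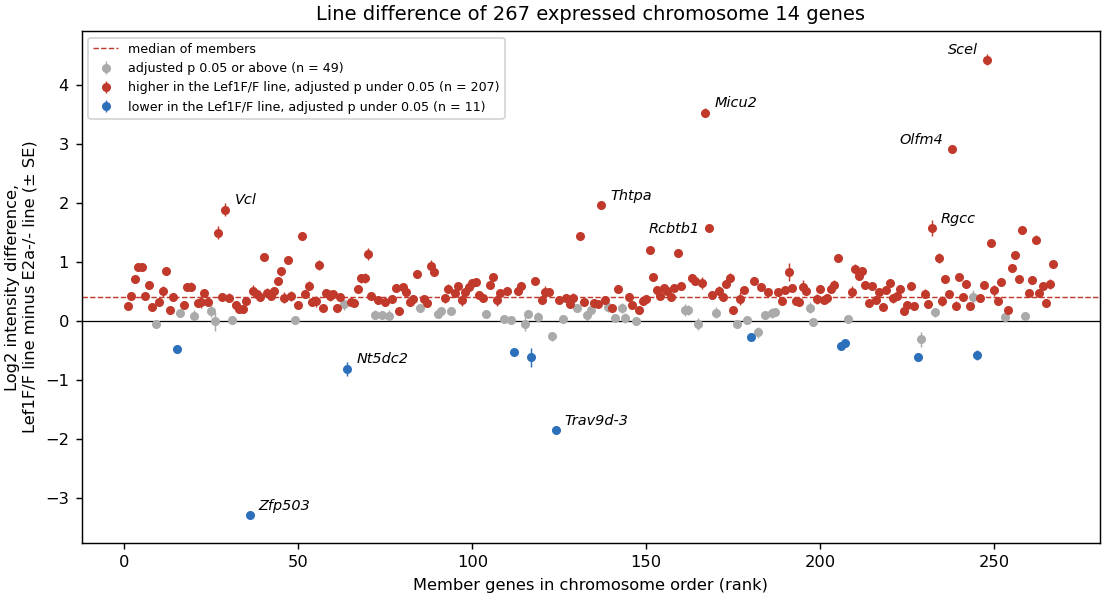
Log2 intensity difference, Lef1F/F line minus E2a-/- line, ± SE (y axis) of each of the 267 members in chromosome order (x axis, rank). Red points are the 207 called higher, blue the 11 called lower and grey the 49 not called. The points form a continuous band around the dashed median of 0.42, from which Scel at 4.43 and Zfp503 at -3.29 lie farthest.

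Second probe sets bright enough to pass the minimum gave a similar picture for most genes. A total of 179 members had more than 1 probe set, and 116 had a second with a mean above 200. The median difference of these second probe sets was 0.40, against 0.42 for the first probe sets of the same genes, and 108 of the 116 had the same sign in both. For 9 genes the 2 probe sets differed by more than 0.5. For Gmfb (0.49), the other probe sets above the minimum gave -0.52, -0.25 and -0.51, and each was called lower. For Nisch (0.32), those above the minimum gave -0.13 and -0.15 and were not called. Gmfb and Nisch were picked out after their values had been seen, and the direction of both rests on the brightest probe set. When all probe sets of each member were averaged, dim ones included, the median was 0.33.

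The same pattern was seen in the arrays of either vector, which share no sample. The median was 0.42 in the MigR1 arrays and 0.42 in the MigR1-Cre arrays. Across genes, which are not independent replicates, the 2 sets of differences correlated with r = 0.97 (rank correlation 0.91), and with r = 0.90 over the 244 members within 1 of 0. In all, 253 of 267 had the same sign in both. The arrays share the 2 lines, so this describes how well the line difference repeated between vectors and says nothing of other lines. In the Lef1F/F line, arrays also resembled each other in pairs across vectors, a pairing not in the labels. Spcs1, for example, read 7221 and 5646 there with MigR1 and 6759 and 5280 with MigR1-Cre. Effects of a pair thus enter both sets, and the correlation does not measure independent repetition. The p-values of the line difference treat these arrays as independent.

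**Figure D4:**
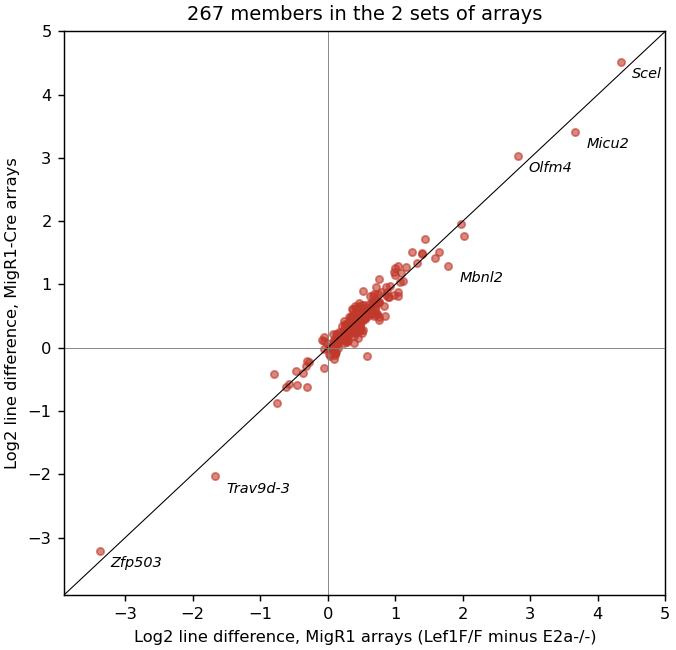
Log2 intensity difference, Lef1F/F line minus E2a-/- line, of each of the 267 members in the MigR1 arrays (x axis) and in the MigR1-Cre arrays (y axis), with the line of equal values. Points follow the line from Zfp503 at the lower left to Scel at the upper right, and Mbnl2 lies below it.

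The members farthest beyond the median were Scel, Micu2 and Olfm4. Scel encodes sciellin, a protein of the cornified envelope of squamous epithelia. Its intensity was 128, 120, 124 and 131 in the E2a-/- line and 2434, 2618, 2527 and 3387 in the Lef1F/F line, a log2 difference of 4.43 as measured. A second, dim Scel probe set, with a mean of 48 units, gave 0.01 for Scel. Micu2 encodes a regulator of the mitochondrial calcium uniporter. It stood at 93, 90, 101 and 98 in the E2a-/- line and at 1056, 1269, 974 and 1135 in the Lef1F/F line (3.54 as measured). Olfm4 encodes olfactomedin 4, a secreted glycoprotein known from intestinal stem cells and neutrophils, and read 45, 52, 44 and 49 in the E2a-/- line and 335, 342, 362 and 406 in the Lef1F/F line (2.92 as measured). The levels of all 3 genes in the E2a-/- line were within or near the range of 56 to 136 units, or below it, that the B cell and myeloid markers had in both lines, so they could not be told from background there, and the size of the difference is known only as a lower bound. They passed the minimum through the Lef1F/F line alone, where they had to be high, as did 18 members in all, 8 of them beyond the band. Their sizes and ranks are descriptions.

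Thtpa and Vcl followed. Thtpa encodes thiamine triphosphatase and had a mean of 104 ± 8.9 (SD, n = 4) in the E2a-/- line and 408 ± 32.4 (n = 4) in the Lef1F/F line, a log2 difference of 1.97 as measured, and 1.00 by its second probe set. It too was in the background range in the E2a-/- line and a member through the Lef1F/F line alone. Vcl encodes vinculin, which links adhesion sites to actin. Its arrays read 330, 329, 356 and 321 in the E2a-/- line and 1202, 1500, 993 and 1329 in the Lef1F/F line (1.89 ± 0.10, SE), while a dim second probe set, with a mean of 64 units, gave 0.32. The remaining 5 of the 10 farthest were Rcbtb1 (1.59), the cell cycle regulator gene Rgcc (1.58), the splicing regulator gene Mbnl2 (1.54), the heparan sulfate sulfotransferase gene Ndst2 (a fold of 2.83) and Haus4 (1.44), which encodes a subunit of the augmin complex of the mitotic spindle. A second probe set gave 1.37 for Rgcc and 1.39 for Mbnl2, but 0.07 for Rcbtb1, where it was dim. In all, 21 members differed more than 2-fold upward.

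In the opposite direction, 11 members were called lower in the Lef1F/F line. Of these, Zfp503, Tbc1d4, Pdlim2 and Slc39a14 passed the minimum through the E2a-/- line alone, where they had to be high. Zfp503, which encodes a zinc finger repressor of the NET family, was the farthest. It was at 702, 709, 715 and 663 in the E2a-/- line and at 62, 75, 71 and 78 in the Lef1F/F line, a log2 difference of -3.29 as measured, and its second probe set gave -2.33. In the Lef1F/F line this transcript lay in the range of the B cell and myeloid markers, so this too is a lower bound of the size. Trav9d-3, a variable segment of the T cell receptor alpha locus, had 1204, 1315, 1270 and 1141 in the E2a-/- line and 402, 390, 278 and 312 in the Lef1F/F line (-1.85 ± 0.06). Its probe sets may share sequence with other variable segments, which form a large family of near copies, so the value may stand for several segments. These were the 2 members more than 2-fold lower.

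The other members called lower were so by smaller amounts. Nt5dc2, a gene for a 5′-nucleotidase domain protein, read 1380, 1372, 1419 and 1413 in the E2a-/- line and 964, 697, 907 and 665 in the Lef1F/F line (-0.81 ± 0.12). Here the 2 arrays of each vector in the Lef1F/F line differed from each other, but all stood below the E2a-/- line. Rpgrip1, for a protein of the photoreceptor cilium, was the least certain of the 10 farthest, at -0.61 ± 0.16 with an adjusted p of 0.0267. Tsc22d1, a TGF-beta responsive transcription regulator gene, was at 1070 ± 98.6 (n = 4) in the E2a-/- line and 712 ± 133 (n = 4) in the Lef1F/F line (-0.60), and its next 3 probe sets gave -0.69, -0.62 and -0.32. Tbc1d4 (-0.57) and Pnp (-0.52) are described below with the lymphocyte genes. Ube2e2, an E2 ubiquitin-conjugating enzyme gene (-0.46), Pdlim2 (-0.42), the zinc transporter gene Slc39a14 (-0.38) and Ints6, for a subunit of the Integrator complex (-0.26, adjusted p = 0.0071), completed the 11. A dimmer Ints6 probe set, with a mean of 206 units, gave 0.10. The arrays of the lines did not overlap in any of the 11.

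A second set of genes could not be told from 0. For 32 members the 95% interval held 0 and lay wholly below the median of 0.42, and in 22 of them its upper bound was under 0.29. Some of the 32 were imprecise rather than near 0, such as Chchd1 (0.18, -0.06 to 0.41), picked after its value had been seen. Others were close to the minimum, such as Fitm1 with a mean of 207 units, and below the minimum little difference was measured. Membership of this set depended on the probe set. A further probe set above the minimum was available for 12 of the 32, and for 5 of these, Dph3 (0.46), Psmc6 (0.34 and 0.38), Tinf2 (0.47), Cab39l (0.36) and Naa16 (0.24), it was called higher. For 1, Fdft1, it was called lower (-0.32). Adk, for adenosine kinase, is an example. It was at 3715, 3764, 3651 and 3676 in the E2a-/- line and at 3859, 3227, 3851 and 4100 in the Lef1F/F line, so that Lef1F/F arrays lay on both sides of the E2a-/- arrays (0.02, 95% interval -0.12 to 0.16), and its next probe set gave 0.08. Selenok, which encodes a selenoprotein of the endoplasmic reticulum (0.01, -0.09 to 0.12), Rnaseh2b, for a subunit of ribonuclease H2 (0.02, -0.11 to 0.16), and Osgep, for a tRNA modification enzyme (0.04, -0.07 to 0.14), were similar and were picked out after their values had been seen. A further 33 members had intervals above 0 but below the median. Tpt1, given below with the growth genes, is among them.

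Members with a known role in T cells or other lymphocytes were mostly higher in the Lef1F/F line. Of 41 genes listed for such a role and measured on chromosome 14, 13 were members, with a median of 0.49, against 0.42 for all members. Of these, 10 were called higher, 2 lower and 1 was not called, where 77.5% and 4.12% of all members were called. The list leaves out Trav9d-3, the T cell receptor segment given above, which was called lower (-1.85). Rgcc, Il17rb and Ripk3 were beyond the band, Ripk3 as a member through the Lef1F/F line alone. Rgcc, a regulator of the cell cycle, had 885, 1113, 802 and 1057 in the E2a-/- line and 3137, 2322, 3302 and 2794 in the Lef1F/F line. Il17rb, a subunit of the receptor for IL-25, had 488, 470, 461 and 552 in the E2a-/- line and 1272, 1238, 1451 and 1379 in the Lef1F/F line, a log2 difference of 1.44. Ripk3, the kinase of necroptosis, had 147, 172, 157 and 158 in the E2a-/- line and 330, 381, 380 and 381 in the Lef1F/F line (1.21).

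Signalling and transcription genes of this list differed by less than Rgcc, Il17rb and Ripk3. Dok2, Elf1 and Lcp1 still lay above the members' upper quartile of 0.60. Dok2, an adaptor that restrains T cell receptor signalling, read 307, 325, 321 and 294 in the E2a-/- line and 619, 557, 539 and 537 in the Lef1F/F line (0.85 ± 0.05, SE). Elf1, an ETS family transcription factor of lymphocytes, was at 1159 ± 61.2 and 1909 ± 220 (SD, n = 4 each; 0.71 ± 0.05). A dimmer Elf1 probe set, with a mean of 157 units, gave 0.04 and was not called. Lcp1, the actin-bundling L-plastin of leukocytes, was at 1850 ± 84.1 and 2904 ± 221 (0.65 ± 0.07). For these 3 genes all arrays of the Lef1F/F line exceeded all of the E2a-/- line. Mapk8, which encodes the kinase JNK1 (0.49), Zmiz1, a coactivator of Notch1 in T cell leukemia (0.46), Arhgef3, a guanine nucleotide exchange factor gene (0.40), and Prkcd, protein kinase C delta (0.34, adjusted p = 0.0422), were also called higher. The 4 dimmer probe sets of Zmiz1 gave -0.21 to -0.03, so its value rests on the brightest. The next Mapk8 probe set gave 0.20 and was not called. Dimmer Mapk8 probe sets gave 0.45 and 0.23, both called higher, and 0.17, not called. The second Prkcd probe set gave 0.22 and was not called. Rnf31, the catalytic subunit of the linear ubiquitin ligase complex, had 0.23 and was not called (adjusted p = 0.103).

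Pnp and Tbc1d4 were the genes of the lymphocyte list that went the other way, as did Trav9d-3, which is not on it. Pnp encodes purine nucleoside phosphorylase, whose loss is known to deplete T cells. It had 1528, 1545, 1500 and 1515 in the E2a-/- line and 1111, 1134, 958 and 1043 in the Lef1F/F line, with no overlap (-0.52 ± 0.04, SE; adjusted p = 9.1e-05). The neighbouring gene Pnp2 is a close copy, and the annotation names both for another probe set, so a share of this signal from Pnp2 was not tested. Tbc1d4 encodes a Rab GTPase activating protein that controls glucose transporter traffic. It had 253, 264, 265 and 247 in the E2a-/- line and 157, 193, 160 and 185 in the Lef1F/F line (-0.57 ± 0.08), and a dimmer probe set gave -0.34. It was a member through the E2a-/- line alone.

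**Figure D5:**
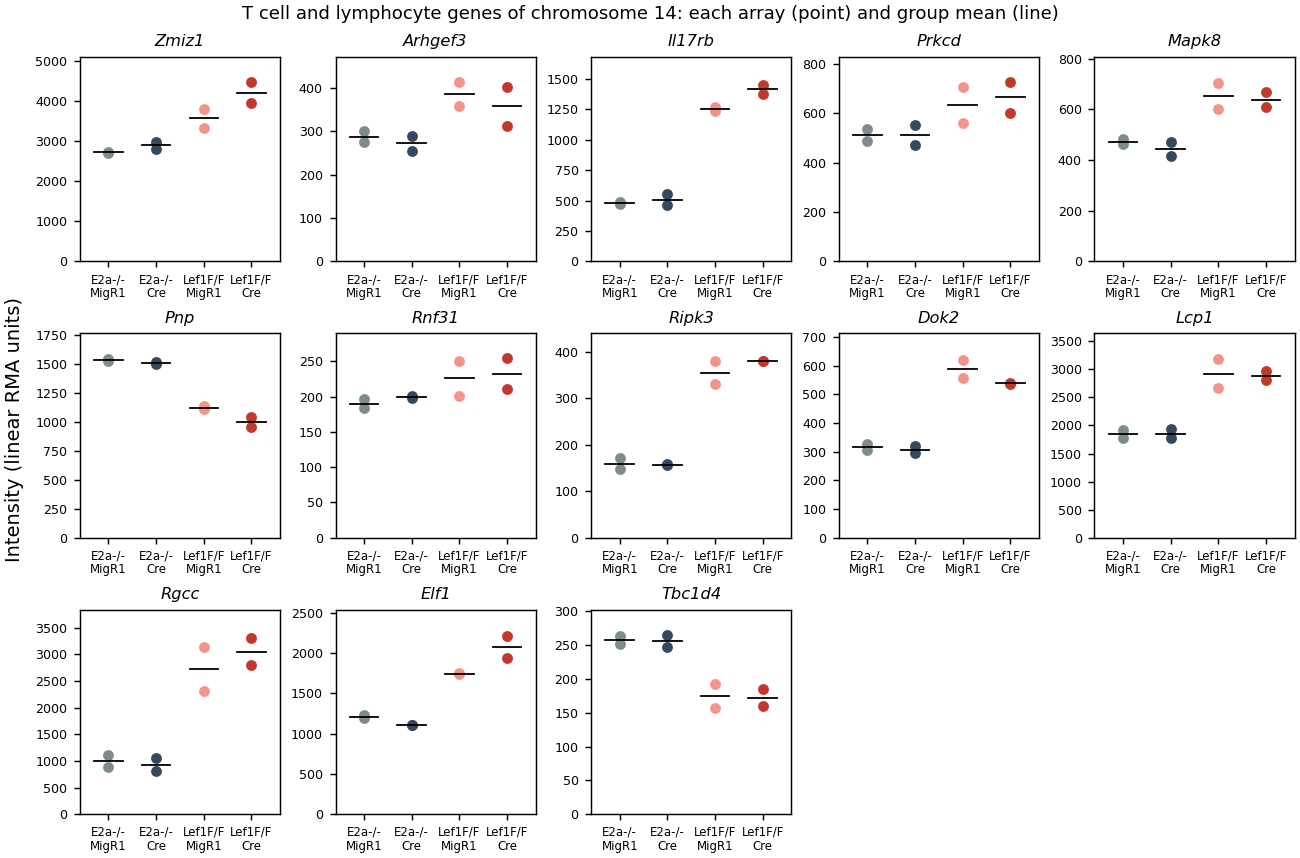
Intensity (y axis, linear units from 0) of the 13 members on the list of T cell and lymphocyte genes, with each array as a point and each group mean as a short line, in the E2a-/- line (grey and dark blue) and the Lef1F/F line (light and dark red) after MigR1 or MigR1-Cre. Trav9d-3 is not on this list and is not shown. In 11 panels every Lef1F/F array is above every E2a-/- array, and in those of Pnp and Tbc1d4 every one is below.

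The other 28 genes of the list did not reach the minimum and are given only for completeness. The granzyme genes of the chromosome, such as Gzmb at 70 units in both lines, were at the level of the B cell and myeloid markers. Tcra, by the probe set that carries this name, had a mean of 110 in the E2a-/- line and 52 in the Lef1F/F line (-1.06), and Tnfsf11, the gene for RANKL, had 157 and 109 (-0.51). Lgals3, for galectin-3, had 77 and 196 (1.34), and Tnfrsf19, a receptor of the TNF family, had 66 and 175 (1.36). These genes were chosen after their values had been seen, and levels in this range are close to background.

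Growth regulators behaved much as the chromosome did. Of 24 measured genes for growth signalling and tumour suppression, 14 were members, with a median of 0.52, of which 13 were called higher and 1 lower. Over all members 77.5% were called higher and 4.12% lower, the background for this count and for those of the lists below. Fhit, a fragile site tumour suppressor gene, was farthest, at 174, 160, 170 and 154 in the E2a-/- line and 312, 293, 324 and 310 in the Lef1F/F line (0.91 ± 0.05, SE). Lats2, a kinase of the Hippo pathway, was at 182 ± 9.39 and 302 ± 26.5 (SD, n = 4 each; 0.73), and Stk24, a related kinase of the STE20 family, was at 1017 ± 26.8 and 1655 ± 122 (0.70). Ccar2, an inhibitor of the deacetylase SIRT1 (0.62), the N-myc downstream regulated gene Ndrg2 (0.60), the deubiquitinase gene Bap1 (0.54), the non-coding RNA gene Dleu2 (0.53) and Kctd9 (0.52) followed. Of these, Fhit, Lats2 and Bap1 are known as tumour suppressor genes. Fhit, Lats2, Ndrg2 and Dleu2 were below 200 units in the E2a-/- line and so were members through the Lef1F/F line alone, and the second Bap1 probe set gave 0.14 and was not called.

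At the lower end of the growth list were genes with small differences. Pbrm1, a subunit of the PBAF chromatin remodelling complex, was at 0.42, at the median of the members. Ppp2r2a, a regulatory subunit of protein phosphatase 2A, had 0.33, the acetyltransferase gene Kat6b 0.27 and Gnl3, which encodes nucleostemin, 0.23. Tpt1, the gene for translationally controlled tumour protein, read 21005, 20989, 21019 and 20849 in the E2a-/- line and 23135, 23828, 23960 and 23909 in the Lef1F/F line. That is 0.18 ± 0.04 (adjusted p = 0.0132). These readings are near the highest intensity of any probe set, which was 24344 or more in each array, where differences may be compressed. Pdlim2, an adaptor that promotes degradation of the p65 subunit of NF-kappaB, was the exception in direction. It had 226, 250, 234 and 213 in the E2a-/- line and 162, 182, 169 and 177 in the Lef1F/F line (-0.42 ± 0.06), and was also the member closest to the minimum, with a mean of 202, which it passed through the E2a-/- line alone.

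Among genes of cell division, replication and DNA repair, 17 of 21 members were called higher and none lower, with a median of 0.52. The brightest were Apex1, an endonuclease of base excision repair (0.52), Pbk, a mitotic kinase (0.52), Supt16, a subunit of the histone chaperone FACT (0.69), and Top2b, topoisomerase II beta (0.51). Supt16 was at 3142, 3226, 3166 and 3236 in the E2a-/- line and at 5181, 5087, 5100 and 5250 in the Lef1F/F line, so the difference was far larger than the spread in either line. The 4 that were not called were Tinf2 (0.01), Rnaseh2b (0.02), Osgep (0.04) and Pinx1 (0.10). A second Tinf2 probe set, with a mean of 230 units, gave 0.47 (adjusted p = 0.00024).

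All 17 measured proteasome and ubiquitin genes were members, with a median of 0.46, of which 15 were called higher and 1, Ube2e2, lower. Ube2e1, a close relative of Ube2e2 on the same chromosome, had 5617, 5553, 5440 and 5279 in the E2a-/- line and 6976, 7264, 7388 and 7437 in the Lef1F/F line (0.41), with 0.04 by a dimmer probe set. Ube2e2 had 369, 370, 398 and 376 in the E2a-/- line and 314, 285, 274 and 231 in the Lef1F/F line (-0.46), so these related genes differed between the lines in opposite directions. The ubiquitin-like modifier gene Nedd8 (0.28) and the proteasome subunit genes Psmd6 (0.24) and Psmb5 (0.32) were called higher. Psmc6, an ATPase subunit, was the 1 gene of this list that was not called (0.12, adjusted p = 0.169), although its other probe sets gave 0.34 and 0.38 and both were called.

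Mitochondrial and metabolic genes had the lowest median of the lists, 0.37, with 19 of 24 members called higher and none lower. Tkt, the transketolase of the pentose phosphate pathway, was at 13997 ± 341 (SD, n = 4) in the E2a-/- line and 17632 ± 1107 (n = 4) in the Lef1F/F line (0.33). Vdac2, a channel of the outer mitochondrial membrane, was at 8250 ± 62.2 and 9545 ± 58.6 (0.21), and Timm23, a subunit of the inner membrane translocase, at 5156 ± 120 and 5798 ± 331 (0.17). The 5 not called were Adk, Pck2 (0.24), Fdft1 (-0.19), Dnajc15 (-0.31) and Oxsm (-0.04).

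Genes of transcription, chromatin and RNA processing had a median of 0.42, with 23 of 31 members called higher and 1, Ints6, lower. Of the brightest, the poly(A) binding protein gene Pabpn1 (0.30), Thoc7 of the THO mRNA export complex (0.43) and the exosome nuclease gene Dis3 (0.26) were called. Hnrnpc, for a nuclear pre-mRNA binding protein, was at 10905 ± 186 (n = 4) in the E2a-/- line and 11917 ± 140 (n = 4) in the Lef1F/F line (0.13, adjusted p = 0.0529). Its arrays did not overlap between the lines, and its second probe set, with a mean of 1592 units, gave 0.58 (adjusted p = 0.0004). Transport, secretion and cytoskeleton genes had a median of 0.42, with 24 of 29 called higher and none lower. The brightest of them were the membrane protein gene Itm2b (0.36), the signal peptidase subunit gene Spcs1 (0.44), the importin gene Ipo5 (0.48) and Tm9sf2, of the endosome and Golgi membrane (0.59). The 118 members on no list had a median of 0.39, with 86 called higher and 6 lower.

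The measured difference depended on the level of the genes. Below a mean of 100 units, 306 chromosome 14 genes had a median of 0.01, and between 100 and 200 units 71 genes had 0.06. It was 0.40 for 82 genes between 200 and 500 units, 0.48 for 74 between 500 and 1000, 0.43 for 60 between 1000 and 2000 and 0.38 for 51 above 2000. The step lay between the bins on either side of the minimum, and above it the median did not keep rising with level. Levels below 100 units were within or under the range of 56 to 136 units of the B cell and myeloid markers. A difference between lines could hardly be seen there, so these genes cannot be said to escape the shift. At the minimum itself, the 3 members just inside were Pdlim2, Olfm4 and Fitm1, with means of 202, 204 and 207, and the 3 genes just outside were Cacna1d, Cdkn3 and Ap1g2, with means of 200, 199 and 193.

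A contrast that played no part in choosing the members is that of MigR1-Cre against MigR1 within a line. In the Lef1F/F line, where Cre acts on the floxed Lef1 alleles, the members' median log2 difference was -0.02, with a range from -0.69 to 0.46, and the median of the other genes above the minimum was -0.03. By limma 1 member was called, where 0.167% of all probe sets were. This was Mbnl2, at 2742 and 2412 in the MigR1 arrays and 1618 and 1731 where Cre was given, a fall of 0.62 ± 0.08 (SE, n = 2 per group; adjusted p = 0.0419). After Cre it was still above the E2a-/- line, where it was between 652 and 753. The call was lost when any of the 8 arrays was left out (0 members called). An unadjusted p under 0.05 was reached by 29 of the 267 members and by 2100 of all 45037 probe sets. With the arrays of the Lef1F/F line paired across vectors, a pairing not in the labels and known only from earlier results of these data, 9 members were called, where 0.766% of all probe sets were. These included Stc1, which encodes the hormone stanniocalcin-1, which read 1228 and 969 in the MigR1 arrays and 748 and 613 with Cre (-0.69, adjusted p = 0.00056 with and 0.204 without the pairing), and Mbnl2.

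In the E2a-/- line, which has no floxed allele, the median was -0.02 and the range -0.19 to 0.24. No member was called by limma, 0 also with trend and robust moderation, and 0% of all probe sets were called. An unadjusted p under 0.05 was reached by 1 member and by 836 of all 45037 probe sets. For the difference of the MigR1-Cre effects between the lines 0 members were called by limma, 0 also with trend and robust moderation, where 0.02% of all probe sets were called. Here 16 members and 1453 of all 45037 probe sets had an unadjusted p under 0.05. With the pairing, 1 member, Stc1, was called, where 0.191% of all probe sets were. Mbnl2 had -0.49 in this test (adjusted p = 0.921), so its response to MigR1-Cre was not shown to differ between lines. The chromosome 14 difference between lines was thus present at the same median size in cells given either vector, and the MigR1-Cre contrasts had medians near 0.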

How the data were processed

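Total RNA from GFP+ cells was extracted with Trizol, labelled with a 3' in vitro transcription kit and hybridised to 8 Affymetrix mouse arrays. The authors normalized the scans with RMAExpress (version not given in the sources used here), and the deposited table holds the intensity of 45037 probe sets on a linear scale. RMA gives all arrays the same distribution of intensity, so a change in total RNA cannot be seen and a shift of 1 chromosome is measured relative to all genes. The array medians lay between 88.9 and 91.0 units. Precision is limited by having 8 arrays.

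Log2 was taken with no offset, since the values were linear where the design had assumed log2. Of the probe sets, 34945 had 1 gene symbol, 932 several and 9160 none. Chromosomes came from the annotation of GRCm38 by gene identifier (by symbol for 143 probe sets, not found for 61). Groups were taken from the titles, and replicates were numbered 1 and 2 in record order. Means of the 4 groups were fitted to all probe sets with limma 3.58.1 in R 4.3.3 (lmFit and eBayes, 4 residual and 3.99 prior degrees of freedom). Tests were two-sided, with Benjamini-Hochberg adjustment over all probe sets within a contrast and a threshold of 0.05. The line difference is the mean of both groups of the Lef1F/F line minus that of the E2a-/- line. The fit was tested on simulated data. Levels are given as single arrays in the order MigR1, MigR1, MigR1-Cre, MigR1-Cre, or as mean ± SD.

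The members and 7 role lists were chosen with earlier results of these data known. Genes were named if among the 10 farthest beyond and the 10 farthest against the median, on the T cell or growth list, among the 4 brightest of another list, called in a Cre contrast, or among the 3 on each side of the minimum. Others fill out a count of at most 5, or the text states that they were picked later. Alternatives were other probe set choices and minima, other normalization, either vector alone, other moderation, array weights, a stricter threshold, a pairing of arrays, only the arrays compared, and leaving out each array.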

Additional observations from a re-analysis of the deposited data

How the results depend on the processing

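The members' median difference between lines stayed above 0 under all alternatives run. The median moved by more than the spread between arrays in 2 of them, to 0.33 when all probe sets of each gene were averaged and to 0.065 with no intensity minimum, where 644 genes entered. Both add dim probe sets, and the cause was not tested. With no minimum, 170 of the 644 genes were near the yardstick and 247 were called higher, against 155 and 207 of the 267 members. The number of genes below 0 was 42 at a minimum of 100 (338 genes), 10 at 400 (207 genes) and 182 with none. The number called lower was 19, 5 and 25. Genes entered where the minimum was lowered or removed and left where it was raised. In the contrast of vectors within the Lef1F/F line, leaving out any 1 array gave 0 to 0 members in place of 1, and array weights, a threshold of 0.01 and only the 4 arrays of the line gave 0 each. With the arrays of the Lef1F/F line paired as a block there were 9 in that contrast, where 0.766% of all probe sets were called, and 1 in the difference of the effects, where 0.191% were. The 1 was Stc1 (-0.71, adjusted p = 0.0136). In all, 115 further values stayed on the same side of their limit and 0 reversed. The 2 arrays per group and the narrow scale of low intensities limit what can be seen for dim genes. The labels name no pairs of arrays, so the pairing used above came from earlier results of these data and not from the labels.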
